A study of Homo sapiens with 6 samples.

Results

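Histone gene expression was examined by RNA-seq in 8505C, a human cell line from an anaplastic thyroid carcinoma, with 3 libraries of a control hairpin and 3 of a short hairpin RNA against HHEX. The control samples carry the genotype label wild-type and the others HHEX KD, and both kinds are labelled untreated. The number of hairpins or clones and the way of delivery are not given. The series' design calls the samples biological replicates, and the titles do not say whether libraries with the same first number come from 1 culture. If they do, the p-values reflect a spread that is in part technical. The 86 genes were taken by name from 58735 named genes: 74 replication-dependent histone genes of the HIST1 to HIST4 clusters, 10 replacement variants, and the regulators SLBP and NPAT. The 74 include H2B rows typed as pseudogenes in the annotation: HIST2H2BA, HIST2H2BB and HIST2H2BD (transcribed) and HIST3H2BA (unitary). A gene was kept when it had 10 or more counts in 3 or more of the 6 libraries, which held for 36 of the 86. Another 29 genes had counts below that rule, and 21 had 0 counts in all 6 libraries.

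Replication-dependent histone genes encode H1, H2A, H2B, H3 and H4, the proteins on which newly copied DNA is packed, and they are active mainly in S phase. Their transcripts are intronless and end in a conserved stem-loop instead of a poly(A) tail. The stem-loop is bound by SLBP, which serves processing, export, translation and decay of these messages, while NPAT, a substrate of cyclin E with CDK2, activates transcription of the clusters. Replacement variants such as H3F3A, H3F3B and H2AFZ are made throughout the cell cycle from spliced, polyadenylated transcripts. Several clustered histone genes can also give longer, spliced or polyadenylated transcripts, as is known for HIST1H2AC and HIST1H2BD. Because the labels name an mRNA capture kit, the counts may hold only part of the transcripts of a replication-dependent gene, and tailed and untailed transcripts were not measured apart.

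Total counts over named genes ran from 13333245 to 15144176 per library, so that 3 counts, used here as a floor, lay at 0.195 to 0.224 CPM, the count scaled to library size with the TMM factors of edgeR. HHEX (ENSG00000152804, chr10:92689951-92695646, plus strand), a homeobox transcription factor of thyroid development, lay at 12.6, 12.8 and 11.98 CPM in control1 to control3. It lay at 14.8 CPM in KD1, with a 95% Poisson interval of 12.9 to 16.8 for counting error, and at 7.93 in KD2 and 7.12 in KD3. The library labelled HHEX shRNA and named KD1 thus went against its label, and the difference between groups did not pass (log2 fold change -0.33, SE 0.28, adjusted p = 0.527, edgeR). KD3 stood apart from KD1 and KD2: without it 4657 of 14280 tested genes were called, against 26 in the fit of all 6 libraries. Of the markers that define thyroid follicular cells, TG, TSHR and SLC5A5 were at or near 0, while NKX2-1 averaged 37.2 CPM in the controls; 6 leukocyte markers together summed to at most 0.916 CPM. Summed markers of endothelium were 14.97 to 16.4 CPM in the controls and 14.9, 14.0 and 5.07 in KD1 to KD3, and those of fibroblasts 43.6 to 55.8 and 42.5, 47.6 and 14.4. Their part in the results was not tested.

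In the control libraries the most abundant replication-dependent gene per length was HIST1H2BK at 56.9 ± 2.72 CPM per kilobase of annotated exon (SD, n = 3), followed by the core histone gene HIST1H2AC at 42.8 ± 3.07 and the linker histone gene HIST1H1C at 37.7 ± 10.2. The control libraries of the last 2 overlapped. On the same scale the replacement H3 genes stood at 78.9 ± 3.98 for H3F3B and 55.1 ± 4.06 for H3F3A, and H2AFZ at 42.7 ± 6.26. On this scale the levels of HIST1H2BK and H3F3A, and of HIST1H2AC and H2AFZ, overlapped. The scale depends on the annotated exon length, which is 381 bases for HIST1H2BK and 3146 for H3F3A. In CPM without this division, the control means were 21.7 for HIST1H2BK and 173 for H3F3A. They were 71.4 for HIST1H2AC and 98.3 for H2AFZ, and neither pair overlapped. All other values below are CPM without the division by length, unless it is named. Detection was uneven: 2 of 6 H1 genes, 4 of 17 H2A, 12 of 22 H2B, 2 of 14 H3 and 6 of 15 H4 genes were kept. HIST1H4C gave 1, 0 and 2 counts in the controls and 4, 3 and 3 in KD1 to KD3. The paired copies HIST2H3A and HIST2H3C had 0 counts in every library. Reads that match such near-identical copies may have been left out or split by the authors' counting, which the sources used here do not describe.

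The stem-loop is shown because it is the mark by which a histone message is recognised. A 16-base element reading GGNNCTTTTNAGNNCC on the sense strand, with the bases of its stem paired, was found in GENCODE 29 transcripts (GRCh38) of 33 of the 74 replication-dependent genes and of 1 variant, H2AFX. Over the whole annotation 42 of 58676 genes, or 0.0716%, hold it. A gene without it in its annotated transcript may only have a transcript model that stops short of it. Capitals mark the 16 bases, read 5′ to 3′ on the strand of the gene.
HIST1H2AC, chr6:26124664-26124689, plus strand: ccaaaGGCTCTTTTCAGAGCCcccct
HIST2H2BE, chr1:149886183-149886208, minus strand: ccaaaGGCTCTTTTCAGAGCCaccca
HIST1H2BD, chr6:26158582-26158607, plus strand: ccaaaGGCTCTTTTAAGAGCCacgca
HIST1H4H, chr6:26285126-26285151, minus strand: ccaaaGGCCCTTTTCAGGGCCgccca
HIST1H4I, chr6:27139649-27139674, plus strand: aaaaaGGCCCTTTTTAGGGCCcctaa
H2AFX, chr11:119094893-119094918, minus strand: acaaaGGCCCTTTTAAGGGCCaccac
The form of HIST1H2AC and HIST2H2BE was the most common, shared by 18 members of the H2A, H2B and H3 classes. The 8 H4 genes had another stem, in 2 forms that differ in 1 base of the loop. These were held by 5 genes (as in HIST1H4H) and 3 genes (as in HIST1H4I). H2AFX, whose product marks DNA breaks when phosphorylated, had the stem of the H4 genes and was alone with its loop.

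Detection of replication-dependent genes differed with the annotated form of the gene. Of 45 genes annotated as a short single exon, 5 were kept: HIST1H1C, HIST1H1D, HIST1H2AE, HIST1H2BK and HIST1H4K. Of 29 genes with a spliced transcript or one that runs 100 or more bases past the stem-loop, 21 were kept. Zero counts in all libraries were found for 17 of the short and 3 of the longer genes. The median merged exon length was 411 bases in the first set and 1668 in the second, so that longer genes also had more sequence in which to be counted. In HIST1H2AC the longest annotated transcript ends 1128 bases past the stem-loop, in HIST1H4H 1655 and in HIST2H2BE 1729. The limit of 100 bases was chosen after these values had been seen. A negative log2 fold change was found for 4 of 4 tested short genes and 19 of 21 tested longer genes. However, HIST1H1D and HIST1H4K among the short ones were kept through their control counts alone. Among the longer ones, HIST1H4E and HIST2H2BF reached 10 counts in all controls but otherwise only in KD1 and only in KD3, respectively.

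**Figure D1:**
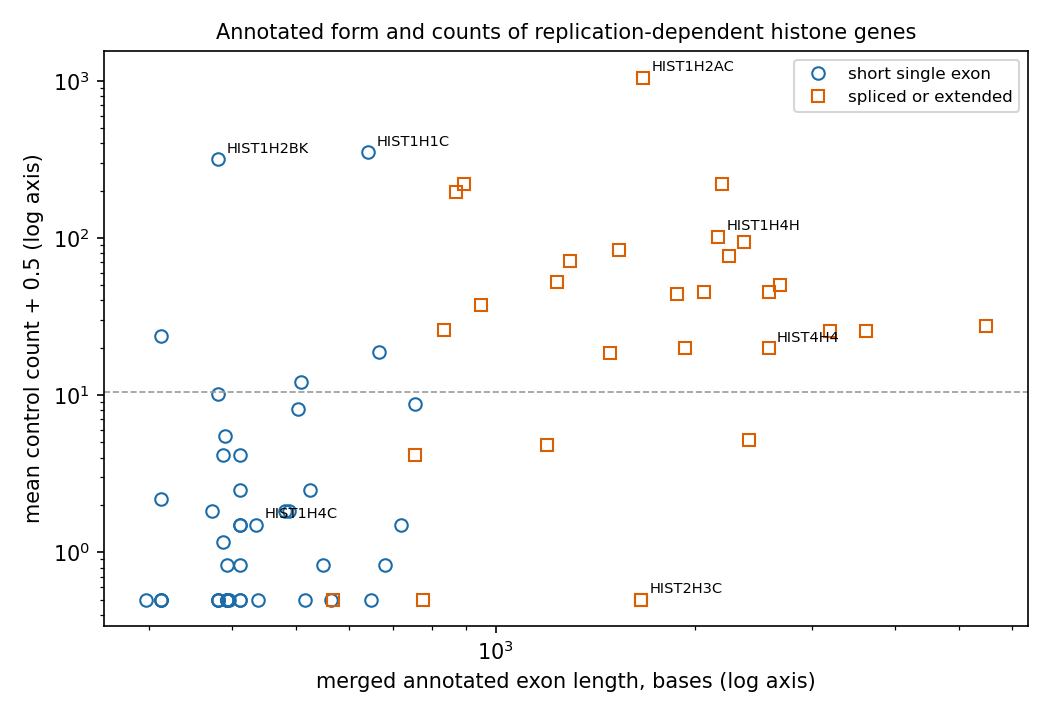
Merged annotated exon length in bases (log axis) against the mean count of the control libraries plus 0.5 (log axis) for the 74 replication-dependent genes; circles are short single-exon genes, squares spliced or extended ones, and the dashed line marks 10 counts. Most circles lie below the line and most squares above it, with HIST1H2BK and HIST1H1C as the 2 highest circles.

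Replication-dependent histone genes were lower as a group in the libraries labelled HHEX shRNA. Their summed level was 220, 244 and 217 CPM in control1 to control3 and 95.2, 94.2 and 97.7 in KD1 to KD3, a ratio of 0.421 between the means of 227 ± 14.8 and 95.7 ± 1.82 (SD, n = 3). All 3 libraries labelled HHEX shRNA, KD1 included, lay below every control, and the ratio was 0.422 without KD1 and 0.416 without KD3. Of 25 tested genes 23 had a negative log2 fold change, with a median of -1.40 beside -0.01 over all 14280 tested genes. Only 2 passed the adjusted threshold of 0.05, HIST1H4H and HIST1H2AC, where 0.077% of all tested genes passed as lower. In 18 of the 25, or 72%, all 3 libraries labelled HHEX shRNA lay below all 3 controls, a pattern found in 13.3% of all tested genes. HIST1H1D and HIST1H4K were kept only through their control counts and so enter the counts over tested genes because they were high there. HIST1H4E and HIST2H2BF also leaned on the controls. Among the libraries labelled HHEX shRNA, only KD1 reached 10 counts for HIST1H4E and only KD3 for HIST2H2BF. The sums hold all 74 genes. In bulk RNA, fewer cells in S phase and less histone message per cell cannot be told apart. A change in the part of the transcripts that the mRNA capture counts cannot be told from these either.

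**Figure D2:**
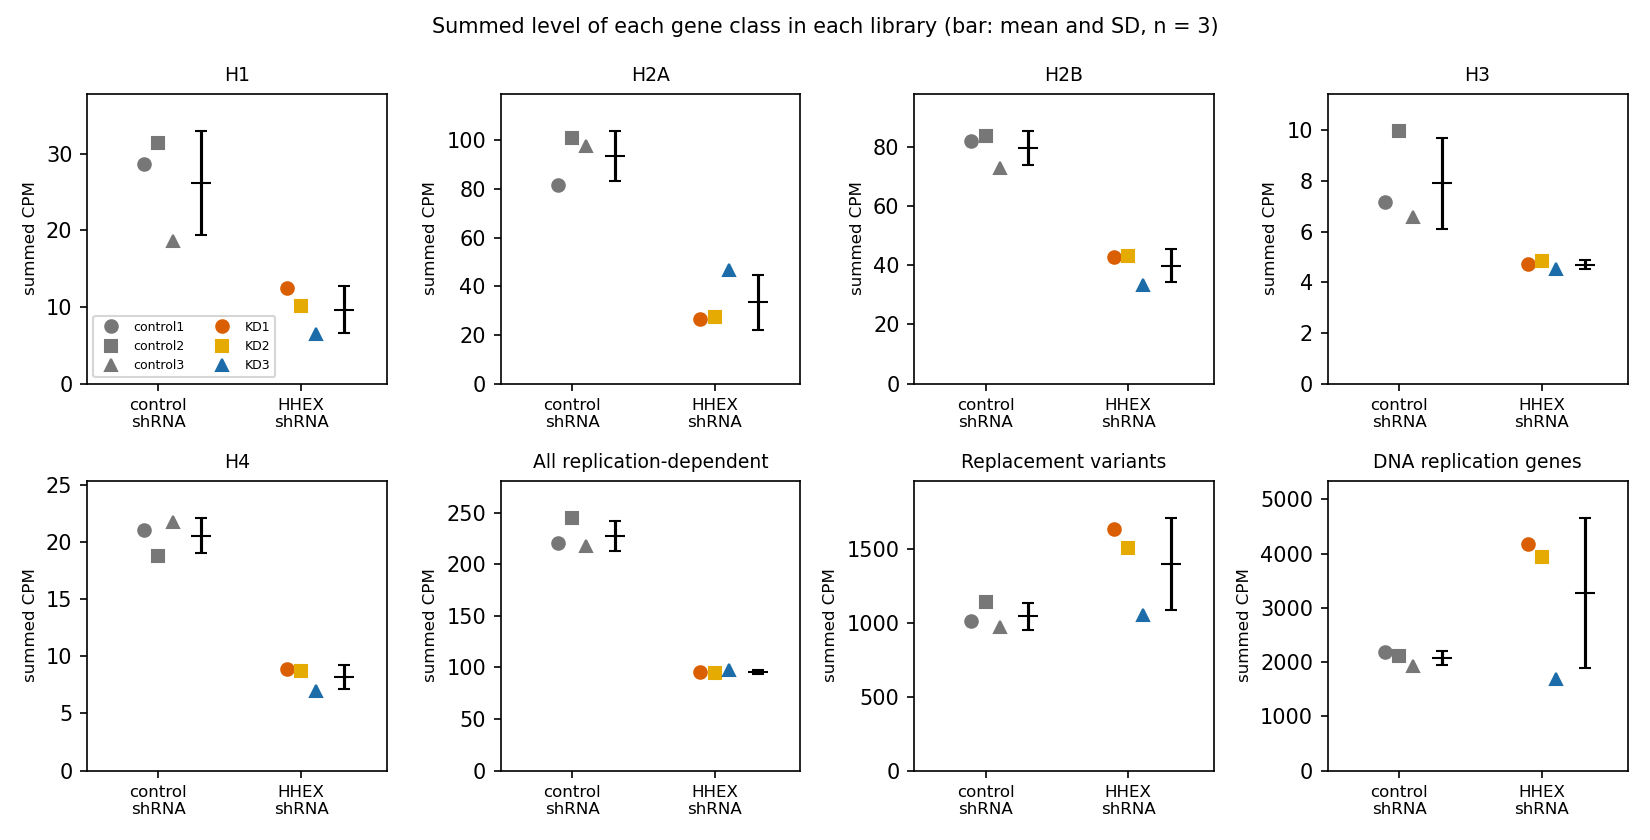
Summed CPM of each class in each library (y axis from 0), for control shRNA on the left and HHEX shRNA on the right of each panel, with the mean and SD of 3 libraries as a bar. The sum of all replication-dependent genes is near 95 in KD1, KD2 and KD3 alike, while the variants and the DNA replication genes are high in KD1 and KD2. In KD3 the variants are within the range of the controls and the DNA replication genes are below every control.

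Each of the 5 protein classes had a lower sum in all 3 libraries labelled HHEX shRNA. H2A stood at 93.4 ± 10.2 CPM in the controls against 33.4 ± 11.3 (ratio 0.358), H1 at 26.2 ± 6.74 against 9.65 ± 3.05 (0.369) and H4 at 20.5 ± 1.53 against 8.20 ± 1.06 (0.400). H2B stood at 79.4 ± 5.77 against 39.8 ± 5.56 (0.5004) and H3 at 7.90 ± 1.81 against 4.69 ± 0.174 (0.594). The H2A sum was set mostly by HIST1H2AC, which made up 76.5% of it in the controls, and the H1 sum by HIST1H1C, with 92.6%. In H2B the largest member, HIST1H2BK, held 27.3%. The H3 sum rested on few counts, 96 to 150 per control library over 14 genes, and the ratio was 0.472 over its 2 kept genes. Without HIST1H3E the H3 sums overlapped, at 3.89, 6.24 and 3.38 CPM in the controls and 3.10, 3.50 and 1.83 in KD1 to KD3 (ratio 0.624).

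Among the H2A genes HIST1H2AC (chr6:26124145-26139116, plus strand) was by far the most abundant. It lay at 65.8, 75.9 and 72.6 CPM in the controls and at 17.8, 20.6 and 32.5 in KD1 to KD3. No library of one group reached the other group, and KD3 kept more of the message (45.5% of the control mean) than KD1 (24.9%) and KD2 (28.8%). HIST1H2AC fell, with a log2 fold change of -1.60 (SE 0.22, adjusted p = 0.0410, edgeR). Without KD1 the log2 fold change was -1.43 and the adjusted p 0.129, and leaving out any other single library but KD3 also ended the call. Over all alternatives the adjusted p of HIST1H2AC ran from 1.45e-15 to 0.257. HIST3H2A, a gene of the small HIST3 cluster, lay at 8.82, 17.3 and 18.2 CPM in the controls and at 2.83, 2.57 and 10.2 in KD1 to KD3. KD3 lay above control1, so the groups overlapped (log2 fold change -1.51, SE 0.55, adjusted p = 0.195). HIST1H2AG was at 5.21 ± 0.373 against 3.39 ± 0.520 CPM without overlap, and HIST1H2AE had 8, 2 and 9 counts in KD1 to KD3 after 13, 12 and 10 in the controls and was too low for the test.

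The H2B class had the most kept genes. HIST1H2BK (chr6:27146418-27146798, minus strand) was at 21.7, 22.7 and 20.6 CPM in the controls and at 17.9, 18.6 and 6.70 in KD1 to KD3. All 3 values lay below the controls, yet KD1 and KD2 kept 82.7% and 86.0% of the control mean and KD3 30.9% (log2 fold change -0.59, SE 0.34, adjusted p = 0.344). HIST2H2BE (chr1:149884459-149886652, minus strand) behaved otherwise, at 15.4, 18.0 and 11.8 against 5.93, 5.86 and 5.29 CPM. Its 3 lower values were close to each other, and its log2 fold change of -1.40 (SE 0.21) had an adjusted p of 0.0512, just above the threshold; it was called with upper-quartile scaling. HIST3H2BB, the neighbour of HIST3H2A, was at 6.28, 6.84 and 6.12 against 1.21, 1.07 and 2.61 CPM (log2 fold change -1.97, SE 0.36, adjusted p = 0.0768). The groups were also apart for HIST1H2BD, HIST1H2BG, HIST1H2BE, HIST1H2BH and HIST2H2BF, whose log2 fold changes ran from -1.85 to -0.87, with none past the threshold. HIST1H2BE shares 28.2% of its exon bases with the annotated gene AL353759.1, and the strand of the reads is not stated. HIST1H2BC, HIST1H2BJ and HIST1H2BN overlapped between groups, and the direction of the last 2 turned when 1 library was left out. HIST2H2BD, typed as a transcribed pseudogene, was the only tested H2B row with a positive value, 0.12 (SE 0.41). It shares 55.1% of its exon bases with HIST2H2BC.

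**Figure D3:**
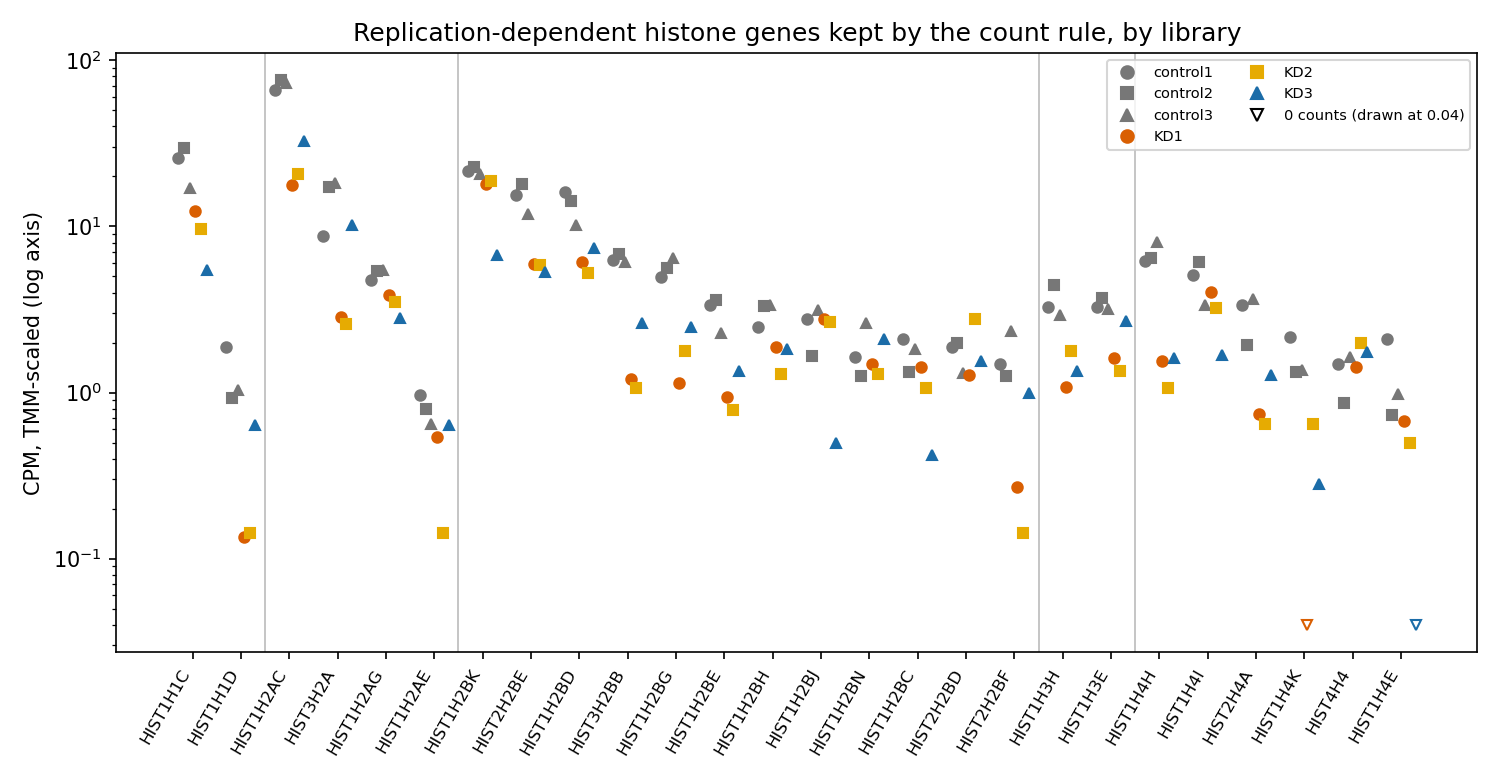
CPM scaled by TMM (log axis) of the 26 kept replication-dependent genes, ordered by class (H1, H2A, H2B, H3, H4, divided by vertical lines); grey symbols are control libraries, coloured ones KD1 to KD3, and open triangles mark 0 counts. Coloured symbols lie below the grey ones for HIST1H2AC, HIST2H2BE and HIST1H4H, and KD3 (blue) is the lowest symbol for HIST1H2BK and HIST1H2BJ.

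H4 genes showed the largest called difference. HIST1H4H (chr6:26277609-26285638, minus strand) lay at 6.20, 6.44 and 8.07 CPM in the controls and at 1.55, 1.07 and 1.62 in KD1 to KD3. KD1, KD2 and KD3 stood at 22.4%, 15.5% and 23.5% of the control mean, so that all 3 libraries were close to each other. HIST1H4H fell, with a log2 fold change of -2.28 (SE 0.29, adjusted p = 0.0335, edgeR). Without KD1 the log2 fold change was -2.35 with an adjusted p of 0.129, in a range over all alternatives from 4.67e-08 to 0.209. HIST1H4I, the second of the class, was at 5.08, 6.11 and 3.38 against 4.04, 3.21 and 1.69 CPM, and KD1 lay above control3 (log2 fold change -0.70, SE 0.38, adjusted p = 0.317). HIST1H4K had the lowest log2 fold change of all members at -2.37, with 2.17, 1.33 and 1.37 CPM in the controls and 0, 0.643 and 0.282 in KD1 to KD3. Its SE was 0.77, and it did not pass (adjusted p = 0.155). HIST4H4, the single gene of the chromosome 12 cluster, had the highest log2 fold change of the kept replication-dependent genes, 0.38 (SE 0.39, adjusted p = 0.604). It lay at 1.49, 0.863 and 1.63 CPM in the controls and 1.42, 2.0 and 1.76 in KD1 to KD3, with overlap. HIST2H4A and its near-identical copy HIST2H4B cannot be separated with certainty: HIST2H4A was at 2.98 ± 0.922 against 0.884 ± 0.336 CPM, and HIST2H4B, which missed the count rule, had 6, 18 and 34 counts in the controls and 0, 0 and 2 in KD1 to KD3.

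Only 2 H3 genes were kept, and both were low. HIST1H3H lay at 3.29, 4.45 and 2.93 CPM in the controls and at 1.08, 1.79 and 1.34 in KD1 to KD3 (log2 fold change -1.34, SE 0.34, adjusted p = 0.115). HIST1H3E lay at 3.29, 3.72 and 3.19 against 1.62, 1.36 and 2.68 CPM (log2 fold change -0.85, SE 0.34, adjusted p = 0.212). Neither passed, and in both the groups did not overlap. Linker histone H1 was counted from 2 genes. HIST1H1C (chr6:26055787-26056428, minus strand) was at 25.9, 29.7 and 16.99 CPM in the controls and at 12.3, 9.64 and 5.50 in KD1 to KD3, a log2 fold change of -1.40 (SE 0.32, adjusted p = 0.105). The 3 lower values were below every control, KD3 the furthest. HIST1H1D was at 1.87, 0.930 and 1.04 against 0.135, 0.143 and 0.634 CPM, and its values in KD1 and KD2 lay below the floor of 3 counts.

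**Figure D4:**
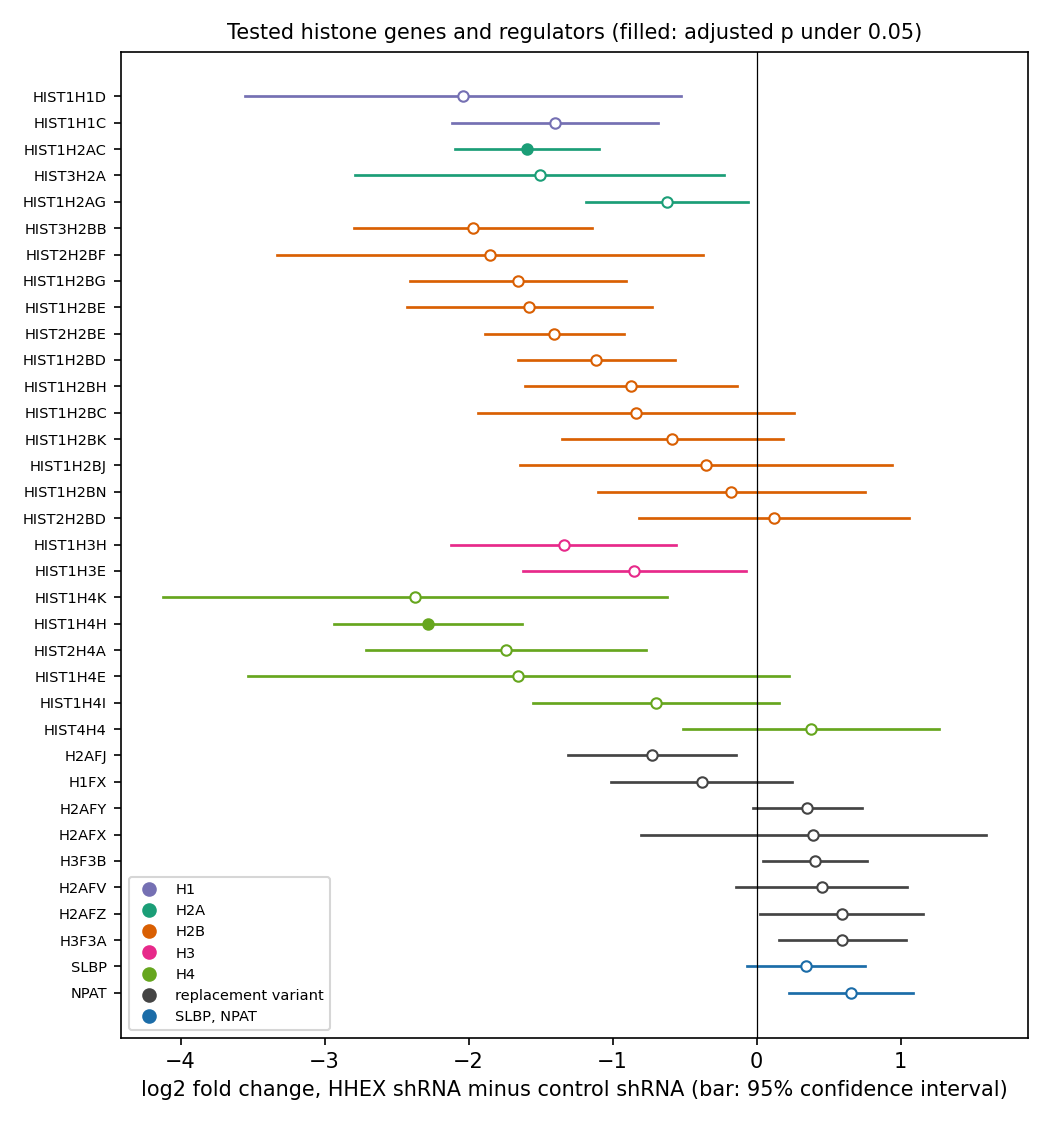
Log2 fold change (HHEX shRNA minus control shRNA, x axis) with 95% confidence interval for the 35 tested genes, coloured by class; filled points passed an adjusted p of 0.05. The filled points are HIST1H2AC and HIST1H4H, and most replication-dependent genes lie left of 0 while H3F3A, H3F3B, H2AFZ and NPAT have intervals right of 0 without passing after adjustment.

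The replacement variants did not share this pattern. Of 8 tested genes 6 had a positive log2 fold change and none was called in either direction, where 0.105% of all tested genes passed as higher. H3F3B was the most abundant, at 489, 505 and 457 CPM in the controls and 725, 670 and 527 in KD1 to KD3. H3F3A, which encodes the same replacement H3 protein from another locus, lay at 173, 187 and 161 against 313, 287 and 187 CPM. In both genes every library labelled HHEX shRNA was above every control, as in 11.6% of all tested genes, with KD3 the closest to them. For H3F3A this rests on 186.7 CPM in KD3 and 186.6 in control2, and by total counts without TMM scaling KD3 lay below control2. Their log2 fold changes were 0.41 (SE 0.16, adjusted p = 0.206) and 0.60 (SE 0.19, adjusted p = 0.155). H2AFZ and H2AFV, which encode the 2 forms of the variant found around active promoters, differed between libraries in the same way. H2AFZ was at 90.5, 115 and 89.4 CPM in the controls and 191, 160 and 92.7 in KD1 to KD3. H2AFV was at 99.97, 103 and 91.8 against 167, 158 and 77.5 CPM. KD1 and KD2 were high and KD3 was within or below the controls, so neither passed (adjusted p = 0.226 and 0.346).

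H2AFX, the variant with a histone stem-loop, varied widely between libraries of 1 group, at 18.0, 35.4 and 16.4 CPM in the controls and 42.9, 37.9 and 10.9 in KD1 to KD3 (log2 fold change 0.39, SE 0.51). KD3 was the lowest of the 6 and KD1 the highest. H2AFY, which encodes the large macroH2A protein, was at 106, 134 and 117 against 168, 168 and 119 CPM (log2 fold change 0.35, SE 0.17), and 30.9% of its exon bases are shared with AC026691.1 and C5orf66. H2AFJ and H1FX had negative values. H2AFJ lay at 25.8, 47.1 and 31.0 CPM in the controls and 21.2, 16.1 and 25.6 in KD1 to KD3, just without overlap (log2 fold change -0.72, SE 0.26, adjusted p = 0.181). H1FX, a replacement linker histone, lay at 11.3, 18.5 and 8.66 against 9.23, 10.1 and 10.1 CPM (log2 fold change -0.38, SE 0.28), and shares 22.9% of its exon bases with H1FX-AS1. H1F0 had 0 counts in every library and H2AFY2 had 1 count in control1. The summed variants reached 1638, 1507 and 1050 CPM in KD1 to KD3 after 1013, 1144 and 973 in the controls. The ratio of 1.34 became 1.23 without KD1 and 1.51 without KD3.

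Both regulators were measured well above the floor, and neither passed the test. SLBP, the stem-loop binding protein, lay at 54.2, 65.8 and 51.4 CPM in the controls and 85.8, 75.4 and 56.1 in KD1 to KD3 (log2 fold change 0.34, SE 0.18, adjusted p = 0.306). Only KD3 lay within the range of the controls. NPAT, the transcriptional activator of the clusters, lay at 33.8, 25.2 and 31.5 against 52.2, 53.9 and 36.5 CPM (log2 fold change 0.66, SE 0.19, adjusted p = 0.134). Here all 3 libraries labelled HHEX shRNA were above the controls, and this was the highest log2 fold change of the 35 tested genes. NPAT shares 1.90% of its exon bases with the adjacent gene ATM.

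The CPM sums of KD1, KD2 and KD3 were nearly equal, but the order of these libraries differed between genes. Per kilobase of annotated exon, the sums were 116, 113 and 87.2 in KD1 to KD3, after 224, 245 and 208 in the controls. KD3 was the lowest on that scale. In 12 of the 25 tested replication-dependent genes KD3 lay above both KD1 and KD2, in 8 below both and in 5 between them. The same split was not made over all tested genes, so it cannot be called particular to histone genes. KD3 was below both for HIST1H2BK, HIST1H1C, HIST1H2BJ, HIST1H2BC, HIST1H4I and HIST1H4E among others. HIST1H2BJ, for example, lay at 2.76, 1.66 and 3.12 CPM in the controls, 2.76 and 2.64 in KD1 and KD2, and 0.493 in KD3. Counts were few for HIST1H4E, with 10, 7 and 0 in KD1 to KD3, and for HIST1H2BC, with 21, 15 and 6. On the other side stood HIST1H2AC, HIST3H2A, HIST3H2BB, HIST1H2BG and HIST2H2BF, in which KD1 and KD2 were the lowest. HIST2H2BF was at 1.49, 1.26 and 2.34 CPM in the controls, 0.270 and 0.143 in KD1 and KD2, and 0.987 in KD3. HIST2H2BE had nearly the same level in all 3. With 1 library on one side, these differences between KD3 and the other 2 have no replicate check.

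**Figure D5:**
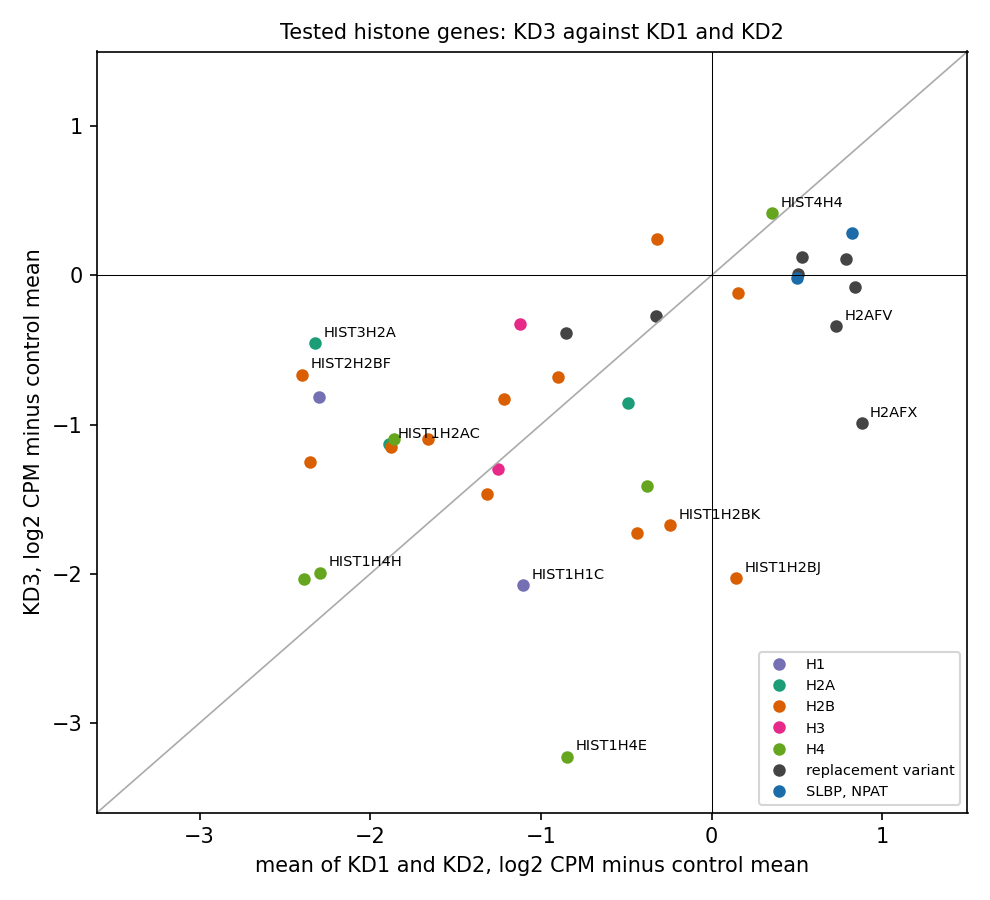
Log2 CPM minus the control mean for the 35 tested genes, the mean of KD1 and KD2 on the x axis and KD3 on the y axis, coloured by class; the diagonal marks equal values. HIST1H2BK, HIST1H2BJ, HIST1H1C and HIST1H4E lie below the diagonal, HIST3H2A and HIST2H2BF above it, and HIST1H4H near it; H2AFX and H2AFV are positive on the x axis and negative on the y axis.

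By position, the HIST1 cluster (chr6:25726132-27893843) held 55 of the members, and all 18 of its tested genes had a negative log2 fold change, with a median of -1.23. The same span holds 18 other tested genes, among them butyrophilin, zinc finger and HMGN4 genes. Of these 10 had a negative log2 fold change, none was called, and the median was -0.05, with a range from -0.98 for PRSS16 to 0.52 for GUSBP2. Over all tested genes of the series, 51.4% were negative and 0.077% passed as lower. The summed level of the HIST1 genes was 181 ± 11.5 CPM in the controls and 78.0 ± 3.81 in the libraries labelled HHEX shRNA, a ratio of 0.430. The HIST2 genes on chromosome 1 gave a ratio of 0.391 and the 4 HIST3 genes 0.319, the latter with 12.8 CPM in KD3 beside 4.04 and 3.64 in KD1 and KD2. HIST4H4 alone gave 1.299. Lower sums were thus measured in 3 clusters on 2 chromosomes.

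Many H2A and H2B genes are transcribed away from each other from a shared stretch of DNA. There were 13 divergent pairs among the members, 138 to 356 bases apart: 12 of an H2A with an H2B gene, and HIST1H3J with HIST1H2BO. Both genes were kept in 4 of them. HIST1H2BC and HIST1H2AC, 218 bases apart, stood at 2.10 and 42.8 CPM per kilobase in the controls, with log2 fold changes of -0.84 and -1.60. HIST1H2BJ and HIST1H2AG stood at 2.65 and 2.32 on this scale with -0.35 and -0.62. HIST3H2A and HIST3H2BB, 233 bases apart, stood at 16.5 and 2.71 with -1.51 and -1.97. In the pair of HIST1H2BK with HIST1H2AH, the first stood at 56.9 and the second at 0.122.

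Promoters are shown for the called genes and for HIST2H2BE, since most tested members of several clusters had lower values together. RefSeq promoter sequences (GRCh38.p14, from 250 bases before to 50 after the start) were matched for 72 of the 86 genes, 61 of them replication-dependent. The octamer ATTTGCAT, the site of POU factors such as POU2F1, was found on either strand in 26 of the 61, or 42.6%, against 1.80% of 27305 promoters of the same length. It stood in 11 of 14 H2A and 14 of 18 H2B promoters, in 1 of 10 H3 promoters (HIST1H3D, whose window is the same as that of HIST1H2AD and counts under both) and in none of the 6 H1 or 13 H4 promoters. Windows of divergent H2A and H2B pairs also overlap, as for HIST1H2AC (chr6:26123922-26124221) and HIST1H2BC (chr6:26123877-26124176). A motif in such an overlap counts under both genes, so these are counts of promoters and not of separate sites. CCAAT was found in 83.6% against 35.7% of all promoters and TATAAA in 65.6% against 11.95%. The 250 bases before the start follow, with octamer, CCAAT and TATAAA matches of either strand in capitals.
HIST1H2AC, chr6:26123922-26124171, plus strand: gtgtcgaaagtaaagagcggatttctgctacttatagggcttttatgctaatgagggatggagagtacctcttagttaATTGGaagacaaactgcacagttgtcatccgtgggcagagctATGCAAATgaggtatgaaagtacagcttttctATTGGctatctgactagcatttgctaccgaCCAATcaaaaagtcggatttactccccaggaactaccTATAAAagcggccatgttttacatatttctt
HIST2H2BE, chr1:149886683-149886932, minus strand: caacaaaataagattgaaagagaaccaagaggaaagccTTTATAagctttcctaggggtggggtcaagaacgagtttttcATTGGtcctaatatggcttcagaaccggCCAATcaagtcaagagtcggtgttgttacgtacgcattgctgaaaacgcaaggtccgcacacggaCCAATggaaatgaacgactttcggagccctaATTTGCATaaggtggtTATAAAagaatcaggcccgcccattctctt
HIST1H4H, chr6:26285535-26285784, minus strand: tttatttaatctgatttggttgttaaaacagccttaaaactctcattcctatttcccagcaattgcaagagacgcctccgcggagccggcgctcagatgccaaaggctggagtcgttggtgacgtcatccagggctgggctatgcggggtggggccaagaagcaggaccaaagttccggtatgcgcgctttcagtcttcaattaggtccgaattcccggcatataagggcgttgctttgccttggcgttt
In HIST1H2AC the octamer begins 130 bases before the start, on the strand opposite to the gene, and TATAAA 31 bases before it. In HIST2H2BE the octamer begins 46 bases and the nearer TATAAA 30 bases before the start. HIST1H4H holds none of the 3 motifs in this window. Among tested replication-dependent genes, the median log2 fold change was -1.14 for the 10 with the octamer and -1.45 for the 14 without it. The 10 include HIST1H2AC and HIST1H2BC, which share the same octamer.

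Other genes of the histone pathway were taken from lists. Over all tested genes of the series, 51.4% had a negative log2 fold change, 0.105% passed as higher and 0.077% as lower. Of 19 tested genes of histone 3′ end processing and decay, 16 had a positive log2 fold change and none was called, with a median of 0.34. Against the control mean, the list's median log2 difference came to 0.49 (KD1), 0.52 (KD2) and 0.06 (KD3). The cap-binding genes NCBP1 and NCBP2 were its most abundant, at log2 fold changes of 0.33 (SE 0.15) and -0.05 (SE 0.11). RNU7-1, the small RNA that pairs with histone pre-mRNA, had 0 counts in every library, but an mRNA capture kit may leave such small RNAs out. Of 13 genes of histone gene transcription, 11 were positive and none called (median 0.26), the most abundant being E2F4 (0.35, SE 0.15) and YY1 (0.29, SE 0.13). Among 22 tested histone chaperones and importers 17 were positive and none called (median 0.27). NAP1L1, a carrier of H2A with H2B and the most abundant of these, was negative (-0.36, SE 0.20), and SUPT16H, a subunit of FACT, was positive (0.41, SE 0.18). CENPA, the centromeric H3 variant, was the only tested gene of 10 further variants, at 8.74, 11.2 and 7.75 CPM in the controls and 22.0, 19.5 and 5.14 in KD1 to KD3.

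Genes of DNA replication, active in the same phase as the clustered histones, differed between the libraries labelled HHEX shRNA. Of 24 tested genes 23 had a positive log2 fold change and none was called, where 0.105% of all tested genes passed as higher. Their median was 0.60, beside -0.01 over all tested genes. Their summed level was 2183, 2117 and 1931 CPM in the controls, 4182 in KD1, 3945 in KD2 and 1684 in KD3. MCM7, a subunit of the replicative helicase, lay at 286, 287 and 250.1 CPM in the controls and 452, 404 and 206 in KD1 to KD3. MCM3, of the same helicase, lay at 228, 220 and 243 against 329, 308 and 182. The replication-dependent histone sum was low in all 3 libraries, while the replication genes were high in KD1 and KD2 and below every control in KD3. Of 18 RNAs made without a poly(A) tail, 12 had 0 counts throughout and RN7SL2 alone was tested (log2 fold change -1.39, SE 0.48, adjusted p = 0.174). Their sums were 3.66, 9.83 and 6.57 CPM in the controls and 4.58, 1.71 and 2.82 in KD1 to KD3, with overlap. Among 6 tested nuclear transcripts that mark RNA quality 5 had a negative log2 fold change and none was called. Only for NEAT1 among the 6 did all libraries labelled HHEX shRNA lie below all controls, as in 13.3% of all tested genes. It was at 551, 1031 and 1115 CPM in the controls and 426, 462 and 502 in KD1 to KD3. The sums of this list were 1263, 1808 and 2090 CPM in the controls and 1125, 1300 and 1207 in KD1 to KD3, with overlap. The part of these in the histone result was not tested.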

How the data were processed

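The authors deposited 1 table for all 6 libraries, with raw read counts per gene, which were used, and 6 columns in another unit, which were not. Trizol isolation and a TIANSeq mRNA capture kit are recorded in the labels' protocols. For aligner, counter, genome build and strandedness the entry is: not given in the sources used here. Start and end coordinates of all 86 genes equal those of GENCODE 29 on GRCh38. A further 998 rows without a gene name, with 0.239% to 0.298% of a library's counts, were left out. Columns were mapped to groups by name, since they carry no replicate label.

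Gene counts were fitted with edgeR 4.0.16 (R 4.3.3): filterByExpr by group, which kept 14280 genes, TMM scaling, glmQLFit with robust estimation and glmQLFTest on 3 against 3 libraries without covariates, with Benjamini-Hochberg adjustment over all tested genes and a threshold of 0.05. Log2 CPM used a prior count of 2. CPM per kilobase used merged GENCODE 29 exon lengths. Sums over genes carry no test. On simulated counts for this comparison over 14280 genes, 44% of 2-fold and 85% of 4-fold changes were recovered. Counts were drawn independently for each gene, so a shift of KD3 in many genes together was not modelled. The changed genes were drawn from all tested genes, so these shares do not hold for histone genes in particular. Reads carry no molecular identifiers, so intervals and the floor cover counting error only. Genes, lists, classes and alternatives were chosen with earlier results of these data known. Values were given for every gene that passed, the 2 most abundant of each class, all variants, SLBP, NPAT, and the highest and lowest log2 fold change. They were also given for the 2 most abundant genes of the lists of 3′ end processing, transcription, chaperones and DNA replication. Other genes, NEAT1 among them, were named after their values were seen. Alternatives were other scalings and filters, DESeq2 1.42.0, and each library left out.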

Additional observations from a re-analysis of the deposited data

How the results depend on the processing

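With 3 libraries a group, calls depended on single libraries. Of all tested genes 26 were called, 15 higher and 11 lower. Leaving out 1 library gave 0 to 4657, with 1 without control1, 0 without control2, control3, KD1 or KD2 (at an unadjusted p under 0.05: 1895, 1765, 1736 and 1555) and 4657 without KD3. DESeq2 called 862 and the fit with no filter on low counts 1359. The split was 15 higher and 20 lower with upper-quartile scaling, 15 and 22 with no scaling, and 20 and 19 with the count rule as filter. Of the histone genes, 2 were called lower, against 0 to 16 when 1 library was left out, 11 with DESeq2 and 15 with no filter. Called higher were 0, against 0 to 7 without 1 library, 1 (NPAT) with DESeq2 and 3 with no filter. HIST1H4H and HIST1H2AC were among the lower calls under every scaling and filter, with DESeq2 and without KD3; under upper-quartile scaling, no scaling and the count rule HIST2H2BE joined them. The median log2 fold change of the tested replication-dependent genes was -1.08 with no filter, -1.23 with a mean CPM of 1 as filter, and -1.46 to -1.21 without 1 library. Directions turned for 3 genes: HIST1H2BJ was 0.13 without KD3 (range -0.68 to 0.13), HIST1H2BN 0.17 without control3 (-0.39 to 0.17), and HIST2H2BD -0.05 without control3 and -0.28 without KD2 (-0.28 to 0.33). The cause of these was not tested. Without each class's most abundant gene the ratio of summed levels was 0.253 for H1, 0.498 for H4 and 0.453 for all replication-dependent genes, and over kept genes alone 0.472 for H3. Sums without overlapping or pseudogene-typed genes, and without each library, were chosen after seeing the data and moved by less than the spread between libraries. No paired analysis was possible because the columns carry no replicate label.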

Other observations

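One histone row outside the rule followed the same pattern. HIST1H2APS3, an H2A pseudogene by name (chr6:26233122-26233255, plus strand), had 8, 5 and 13 counts in the controls and 0, 1 and 0 in KD1 to KD3. It lies next to HIST1H1D, which was at 0.135 CPM in KD1 and 0.143 in KD2 after 0.930 to 1.87 in the controls. Another pseudogene, HIST1H3PS1, had 8 counts in KD1, 1 in control3 and 0 in the other 4 libraries. These rows were picked after their values were seen, and they were not tested. Of the other 13 rows named as pseudogenes outside the rule none had more than 3 counts in any library.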
